A study of Rattus norvegicus with 16 samples.

Results

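The 10 genes described here encode proteins that carry, take up, store, release and sense iron: Tf, Tfrc, Fth1, Ftl1, Slc40a1, Slc11a2, Ireb2, Aco1, Cp and Hmox1. They were taken by gene symbol from the deposited gene tables of both sexes and joined by Ensembl ID. All 10 had a row in both tables, among 13731 genes in both tables and 14857 in either. The tables hold RNA sequencing results of the periaqueductal gray, a midbrain region with a role in vocalization and pain, from Long Evans rats aged 8 months. The groups were female Pink1-/-, female WT, male Pink1-/- and male WT rats, with 4 libraries in each of the 4 groups and 16 in all. Pink1 encodes a mitochondrial kinase, and its loss in humans causes an early-onset form of Parkinson disease. No promoter, cell type or time of deletion was given in the labels for the Pink1-/- animals, nor whether WT animals were littermates. Separate animals were assumed from the labels, which name libraries in a different style in each sex, so the spread behind each p-value may in part be technical.

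In the brain, iron is bound by transferrin and enters cells when transferrin docks on its receptor. Iron that is not used at once is stored in ferritin, a shell of heavy and light chains, and leaves the cell through ferroportin. Cells set these steps mostly after transcription: iron regulatory proteins bind short hairpins in the ferritin, receptor and transporter mRNAs. In rodent brain, most transferrin mRNA is made by oligodendrocytes, with a further source in the choroid plexus.

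Transferrin (Tf) mRNA fell in male Pink1-/- rats and in the mean over both sexes, and it was the only member past the threshold in any comparison. No other member passed the test. Tf was at 69.2% of the WT level in male Pink1-/- rats and at 79.7% in female Pink1-/- rats. The receptor gene Tfrc was at 78.7% of WT in females, short of the threshold, and at 95.8% of WT in males. The regions before both genes are shown because these were the only members with lower estimates in both sexes. The lines below give the 250 bases before the RefSeq transcription start, 5′ to 3′ on the minus strand of assembly GRCr8, at chr8:112695377-112695626 for Tf and chr11:81690319-81690568 for Tfrc. Capitals mark matches to the motifs that were searched.

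Tf: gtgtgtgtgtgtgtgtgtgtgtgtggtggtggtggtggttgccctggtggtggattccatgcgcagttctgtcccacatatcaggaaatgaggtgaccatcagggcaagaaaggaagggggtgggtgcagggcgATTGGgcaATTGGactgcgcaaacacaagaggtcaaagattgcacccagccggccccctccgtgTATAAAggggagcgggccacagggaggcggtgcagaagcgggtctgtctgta

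Tfrc: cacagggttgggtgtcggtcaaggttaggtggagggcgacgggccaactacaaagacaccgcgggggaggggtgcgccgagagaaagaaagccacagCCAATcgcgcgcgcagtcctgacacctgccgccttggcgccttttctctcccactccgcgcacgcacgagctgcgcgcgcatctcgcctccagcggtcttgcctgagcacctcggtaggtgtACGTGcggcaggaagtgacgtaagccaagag

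Of the 10 members, 7 matched a RefSeq promoter window by symbol, with 8 windows among 33469 in all. The motifs were searched on both strands, and none of those found overlapped another. The CCAAT box (CCAAT) lay at positions -116 and -108 of Tf on the opposite strand, where it reads ATTGG, and at -153 of Tfrc. It was found in 34.0% of all windows. Tf also held a TATA box (TATAAA) at -52, a motif of 12.9% of all windows, and Tfrc held the hypoxia response core (ACGTG) at -31, a motif of 16.6% of all windows. The GC box (GGGCGG, 30.5% of windows) and the antioxidant response element (TGACNNNGC, 10.1% of windows) were not found in either window. These matches describe letters only.

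The deposited values are the log2 fold change of Pink1-/- over WT within a sex and the authors' average level, in CPM (reads per gene scaled to library size), over the 8 libraries that each table compares. A gene was called when its adjusted p was under 0.05. The ± values are standard errors (SE) approximated from the authors' likelihood-ratio score. Values for single libraries were not analysed here, so the overlap between groups, the depth of each library and the level in each group are unknown. Pink1 itself was at 2.65% of the WT level in female Pink1-/- rats and at 2.16% in male Pink1-/- rats (adjusted p = 9.0e-102 in males, edgeR). The median log2 fold change of all genes was 0.0022 in females and 0.00018 in males. Of the tissue's markers, the glutamate transporter gene Slc17a6 averaged 424 CPM in females and 387 in males, and Tph2, the serotonin synthesis gene of the adjoining dorsal raphe, averaged 8.53 and 13.9 CPM.

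In females, 0 of 10 members were called by edgeR, where 0.799% of all 14272 genes were called. At an unadjusted p under 0.05 there were 2 members, Tf and Tfrc, against 8.09% of all genes. The female estimate was higher in Pink1-/- rats for 7 members and lower for 3, with a median log2 fold change of 0.06. In males, 1 of 10 members was called, where 0.782% of all 14316 genes were called. The same member, Tf, was the only 1 at an unadjusted p under 0.05, against 4.89% of all genes. The male estimate was higher for 5 members and lower for 5, with a median of -0.03. In the mean over both sexes, weighted by the inverse variance, 1 of 10 members was called against 1.17% of 13731 genes, and 3 had an unadjusted p under 0.05 against 9.27% of genes. For the difference between sexes, 0 members were called against 0.233% of genes, and 1 member (Cp) had an unadjusted p under 0.05 against 3.58% of genes. The log2 fold change had the same sign in both sexes for 6 of 10 members, as for 58.8% of all shared genes.

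**Figure D1:**
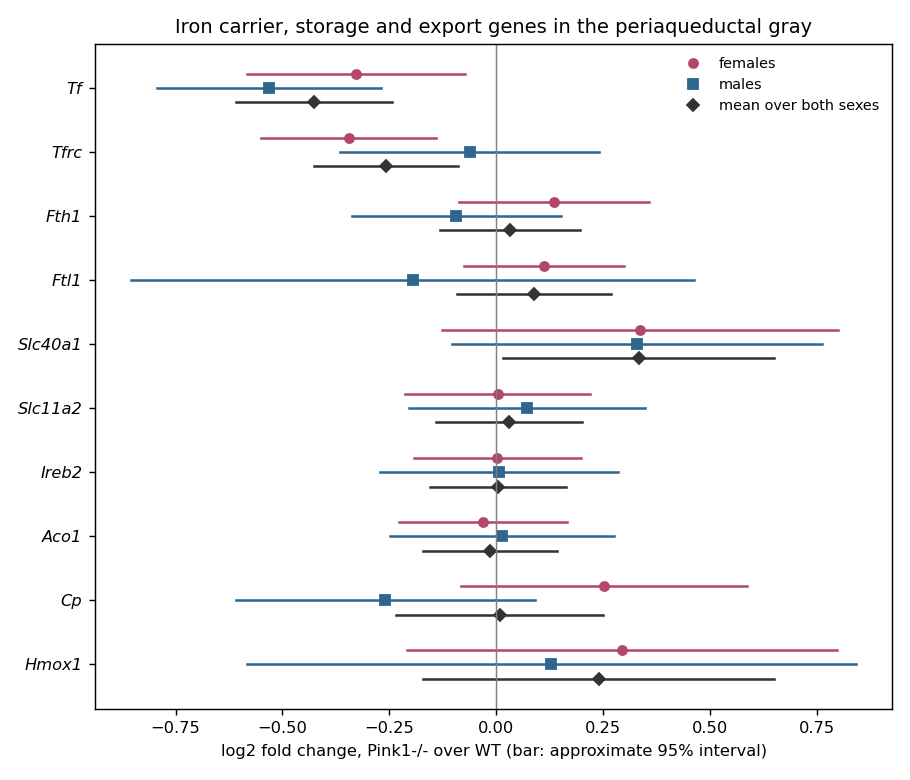
Log2 fold change of Pink1-/- over WT (x axis) for each of the 10 iron genes (rows), in females (circles), males (squares) and as the mean over both sexes (diamonds), with bars for approximate 95% intervals. Tf lies to the left of 0 in all 3 estimates, while the intervals of Fth1, Ftl1, Slc11a2, Ireb2, Aco1, Cp and Hmox1 include 0 in each estimate.

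Tf (ENSRNOG00000030625, chromosome 8) encodes transferrin, the iron carrier of blood and brain fluid. It averaged 1073 CPM over the female libraries and 586 CPM over the male libraries; the tables were normalized separately, so these levels are not compared. In males the log2 fold change was -0.53 ± 0.13 (adjusted p = 0.0127, edgeR), or 30.8% below WT with a 95% interval of 57.7% to 83.0% of the WT level. By p-value Tf ranked 78th among the male genes. In females the log2 fold change was -0.33 ± 0.13 (adjusted p = 0.354), with an interval of 66.8% to 95.05% of WT, and Tf ranked 467th. The mean over both sexes was -0.43 ± 0.09, or 74.4% of WT (adjusted p = 0.00085, normal approximation). The difference between sexes, female minus male, was 0.20 ± 0.19 with an interval of -0.16 to 0.57 (adjusted p = 0.99977), so it is not shown that the sexes differed. The male call did not hold when the score was read against an F distribution with 1 and 6 degrees of freedom (adjusted p = 0.99988, with 2 genes of all called). Nor did the mean when read against a t distribution with 12 degrees of freedom (adjusted p = 0.117). Under the F reference 1 gene of all was called in females, so at most 1 female call named below could hold.

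In bulk tissue, fewer cells of a type and less RNA per cell cannot be told apart, so the values of cell type markers are given beside Tf. Of 18 oligodendrocyte markers 17 were measured. Of these 5 were higher and 12 lower in female Pink1-/- rats, with a median of -0.01, and 9 were higher and 8 lower in male Pink1-/- rats, with a median of 0.05. Over all genes, 50.5% were higher in females and 50.0% in males. The myelin gene Mbp did not pass the test in either sex, at -0.08 ± 0.08 in females and 0.15 ± 0.15 in males. Tf was below the oligodendrocyte median by 0.32 in females and 0.58 in males on the log2 scale. Opalin, a gene of mature oligodendrocytes, was the only marker of the list with a lower estimate than Tf in females (-0.58 ± 0.16, adjusted p = 0.0398, edgeR), and no marker of the list was lower than Tf in males. Opalin in males was at -0.16 ± 0.18 (adjusted p = 0.99987), and its mean over both sexes was -0.39 ± 0.12 (adjusted p = 0.0685), close to the -0.43 of Tf. In that mean 7 of 17 oligodendrocyte markers were higher and 10 lower, with a median of -0.03 and none called. In males 3 markers of the list had an unadjusted p under 0.05 by edgeR. Of these Myrf, the transcription factor that drives myelin genes, was higher, at 0.57 ± 0.16 (adjusted p = 0.0566). Aspa and Cldn11 were lower, at -0.36 ± 0.15 and -0.26 ± 0.12 (adjusted p = 0.685 and 0.773, edgeR).

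Choroid plexus markers were near the lower end of the tables, with medians of 1.79 CPM in females (7 of 12 measured) and 1.66 CPM in males (9 of 12 measured). Their median log2 fold change was 0.22 in females and -0.24 in males, and none was called. Ttr, the defining gene of that tissue, was measured in males only, at 0.568 CPM (3.10 ± 1.20, adjusted p = 0.472). Astrocyte markers had a median of 0.23 in females, with 10 of 12 higher and Gja1, a gap junction gene, called (0.38 ± 0.11, adjusted p = 0.0435, edgeR). In males their median was -0.04, with 5 of 12 higher, 7 lower and none called. In the mean over both sexes 11 of 12 astrocyte markers were higher, where 50.1% of all shared genes were. Atp1b2, a sodium pump subunit gene, was called in that mean (0.39 ± 0.10, adjusted p = 0.0132, normal approximation). The microglial medians were 0.00 in females and -0.12 in males, and no marker of that list was called. Neuron markers had medians of -0.02 and 0.00, with Snap25, a synaptic vesicle fusion gene, called in females (-0.32 ± 0.08, adjusted p = 0.0227) and in the mean over both sexes (-0.26 ± 0.07, adjusted p = 0.0181). Of 17 markers of the periaqueductal gray and dorsal raphe, 13 were measured in females, with 7 higher, 6 lower and a median of 0.04. In males 14 were measured, with 3 higher, 11 lower, a median of -0.16 and none called. Among them, serotonergic markers of the neighbouring dorsal raphe had large negative estimates in males that did not pass. These were -2.41 ± 0.81 for Tph2 and -2.57 ± 0.88 for Slc6a4 (adjusted p = 0.207 and 0.229, edgeR). In females they were at -0.14 ± 1.07 and -0.66 ± 1.16. Sst, the somatostatin gene of inhibitory neurons, rose in female Pink1-/- rats (1.14 ± 0.24, adjusted p = 0.0012) and was at -0.11 ± 0.30 in males. In males 3 of 15 microglial and 1 of 12 astrocyte markers had lower estimates than Tf, without passing. So did 3 of 14 markers of the periaqueductal gray and dorsal raphe. Of the 5 erythroid genes measured in males, 2 were also lower than Tf, without passing. These were haemoglobin genes, which mark red blood cells, at -1.20 ± 0.51 for Hba-a1 (adjusted p = 0.652, edgeR) and -1.19 ± 0.53 for Hba-a2 (adjusted p = 0.742). Both are near-identical copies whose shared reads are uncertain. Hbb, a further haemoglobin gene, was at -0.51 ± 0.34 in males, Alas2 at -0.25 ± 0.41 and Epb42 at 0.59 ± 0.34. In females Hba-a1 and Hba-a2 were at -0.07 ± 0.20 and 0.05 ± 0.23. The median of the 5 erythroid genes measured in males was -0.51, close to the -0.53 of Tf, and that of the 4 measured in females was -0.07. No gene of the precursor, erythroid, endothelial or fibroblast lists was called in either sex. The medians of the precursor, endothelial and fibroblast lists ran from -0.05 to 0.28. The part of cell composition, blood content or dissection in the lower Tf estimate was not tested.

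**Figure D2:**
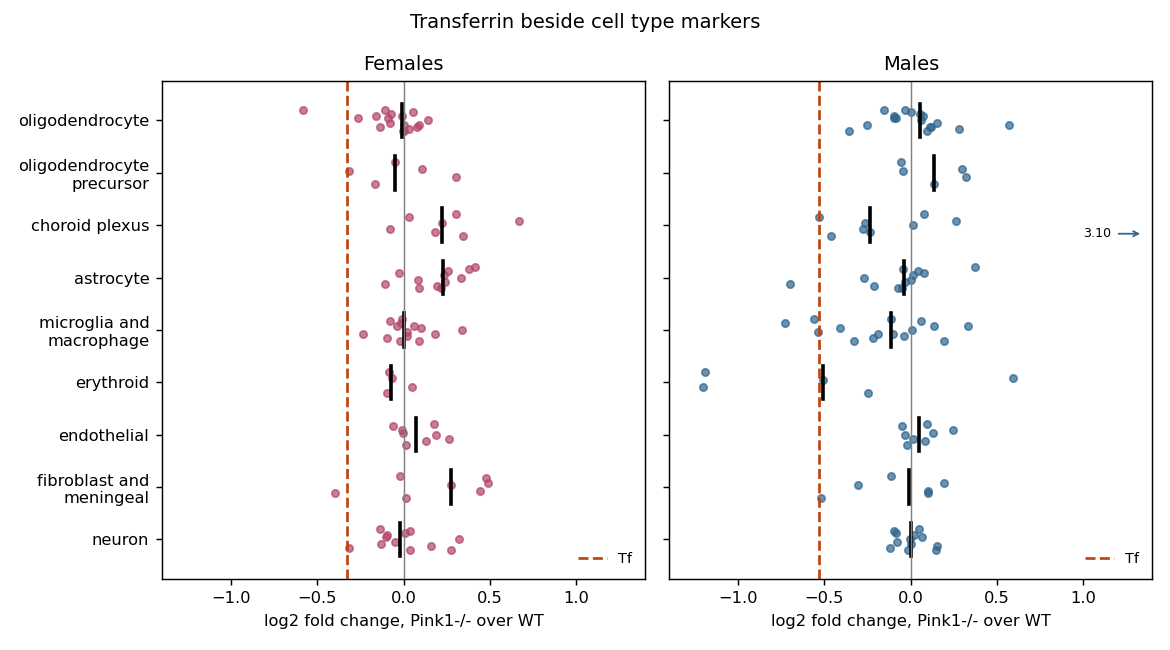
Log2 fold change of Pink1-/- over WT (x axis) for the measured genes of 9 cell type marker lists (rows), in females (left) and males (right). Points are genes, black bars are list medians, the dashed line is Tf, and the arrow marks Ttr, which lies off the axis at 3.10. The dashed line lies left of every list median, by only 0.02 for the erythroid genes in males, and 1 of 17 oligodendrocyte markers in females and 0 of 17 in males lie to its left.

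On each side of Tf in the RefSeq order, the 4 nearest protein-coding genes measured in both sexes under the same symbol were taken. Genes that did not meet this were skipped. Their log2 fold changes ran from -0.21 to 0.41 in females and from -0.12 to 0.18 in males. None of these 8 neighbours was called, and the lowest adjusted p was 0.620. Topbp1, a DNA damage response gene and the nearest of these on its side of Tf, was at -0.21 in females and -0.02 in males. Rab6b, the nearest on the other side, was at -0.02 and 0.08.

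Tfrc (ENSRNOG00000001766, chromosome 11) encodes transferrin receptor 1, which brings iron-loaded transferrin into the cell. It averaged 89.9 CPM over the female and 73.8 CPM over the male libraries. In females the log2 fold change was -0.35 ± 0.10, with an interval of 68.3% to 90.6% of WT, and Tfrc ranked 146th of 14272 genes without passing (adjusted p = 0.0862, edgeR). In males it was -0.06 ± 0.15 (adjusted p = 0.99987). The mean was -0.26 ± 0.09 (adjusted p = 0.136), and the difference between sexes was -0.28 with an interval of -0.65 to 0.08, which includes 0. The 8 genes around Tfrc, taken as for Tf, ran from -0.19 to 0.48 in females and from -0.25 to 0.24 in males, with none called. Tfr2, the second transferrin receptor gene, was measured in females only, at 1.37 CPM and -0.39 ± 0.42.

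**Figure D3:**
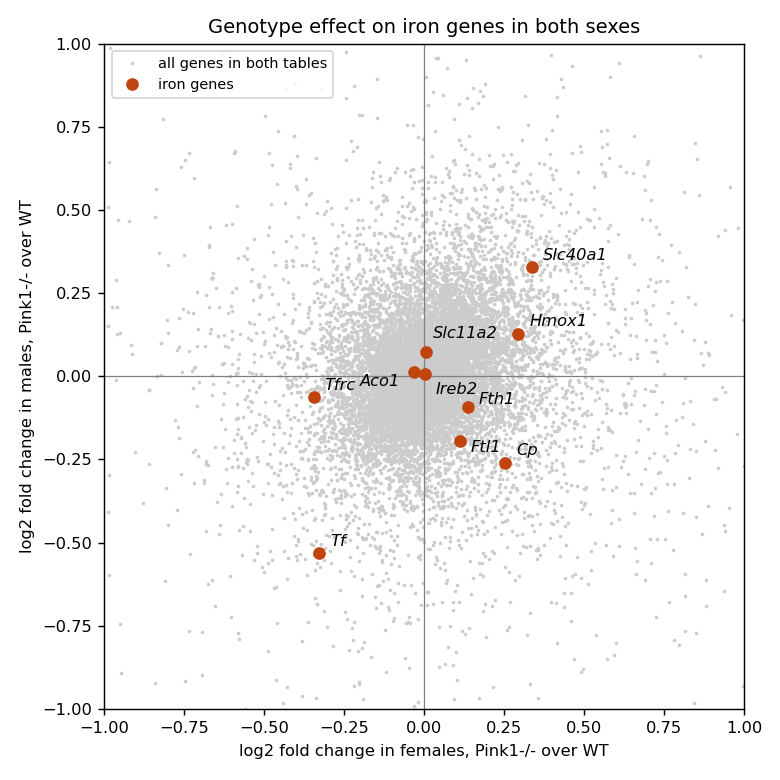
Log2 fold change of Pink1-/- over WT in females (x axis) against males (y axis) for genes in both tables (grey) and the 10 iron genes (named points); 259 of 13731 genes lie outside the axes. Tf lies at -0.33 and -0.53, low on both axes, and Tfrc at -0.35 and -0.06.

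Both ferritin genes showed small estimates of opposite sign in the sexes. Fth1 (ENSRNOG00000022619) encodes the heavy chain, which oxidizes iron for storage, and averaged 286 CPM in the female and 192 CPM in the male libraries. Its log2 fold change was 0.14 ± 0.11 in females and -0.09 ± 0.12 in males, or 109.8% and 93.8% of WT. The interval of the mean over both sexes ran from -0.13 to 0.20. Ftl1 (ENSRNOG00000031506) encodes the light chain, which supports the growth of the iron core. It was at 0.11 ± 0.10 in females (39.8 CPM) and -0.20 ± 0.34 in males (28.2 CPM). The male SE of Ftl1 was 2.34 times the median SE of the 500 genes nearest in level, and 99.8% of those genes had a smaller SE. The female SE was 0.93 times that median. A row annotated as ferritin light chain 1-like (LOC100360087) was at 0.03 ± 0.09 in females (49.4 CPM) and -0.10 ± 0.27 in males (17.3 CPM). How RSEM shared reads between Ftl1 and that copy cannot be seen in these values, so both are uncertain.

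Ferroportin (Slc40a1, ENSRNOG00000003872), the iron exporter of the cell membrane, had nearly the same estimate in both sexes, 0.34 ± 0.24 in females (4.88 CPM) and 0.33 ± 0.22 in males (4.85 CPM). Neither passed, with an adjusted p of 0.79996 in females and 0.99987 in males. The mean over both sexes was 0.33 ± 0.16, or 126% of WT, with an interval of 0.02 to 0.65, and did not pass after adjustment (adjusted p = 0.486). Ceruloplasmin (Cp, ENSRNOG00000011913), the copper ferroxidase that works with ferroportin, was at 0.25 ± 0.17 in females (9.61 CPM) and -0.26 ± 0.18 in males (13.9 CPM). The difference between sexes for Cp was 0.51 ± 0.25, with an interval of 0.028 to 0.996, and failed the adjustment (adjusted p = 0.99977). Its mean over both sexes was 0.01 ± 0.12. Slc11a2 (ENSRNOG00000019550) encodes the divalent metal transporter that moves iron out of endosomes, and was at 0.00 ± 0.11 in females (36.5 CPM) and 0.07 ± 0.14 in males (23.4 CPM).

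The genes of both iron regulatory proteins had estimates close to 0. Ireb2 (ENSRNOG00000013271), which encodes the protein degraded when iron is plentiful, was at 0.00 ± 0.10 in females (33.2 CPM) and 0.01 ± 0.14 in males (33.9 CPM). Aco1 (ENSRNOG00000005849), whose product switches between aconitase and RNA binding, was at -0.03 ± 0.10 in females (36.7 CPM) and 0.01 ± 0.13 in males (27.9 CPM). The 95% intervals of their means over both sexes were -0.16 to 0.16 for Ireb2 and -0.17 to 0.14 for Aco1. Hmox1 (ENSRNOG00000014117) encodes the inducible haem oxygenase, which frees iron from haem. It had the lowest level of the 10 members, 3.85 CPM in females and 1.93 CPM in males. Its log2 fold change was 0.29 ± 0.26 in females and 0.13 ± 0.36 in males.

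Given its SE, a member had to reach a log2 fold change between 0.34 (Ftl1) and 0.91 (Hmox1) to pass in females, and between 0.44 (Fth1) and 1.30 (Hmox1) in males. Tf needed 0.46 in females and 0.48 in males. Its SE was 1.46 times the median SE of the 500 genes nearest in level in females, where 97.2% of those genes had a smaller SE. In males it was 1.13 times that median, with 82% smaller.

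A further 110 genes of iron handling were listed in 5 groups, of which 90 were measured in each sex. In female Pink1-/- rats 42 were higher and 48 lower, with 1 called and 7 at an unadjusted p under 0.05, where 0.799% and 8.09% of all genes were. In male Pink1-/- rats 46 were higher and 44 lower, with 0 called by edgeR and 2 at an unadjusted p under 0.05, where 0.782% and 4.89% of all genes were. In the mean over both sexes 0 of 89 were called and 9 had an unadjusted p under 0.05, where 1.17% and 9.27% of all genes did. In males the count at an unadjusted p under 0.05 was below the share over all genes, and the other counts were near their shares. The median log2 fold change was -0.01 in each of females and the mean, and 0.01 in males.

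**Figure D4:**
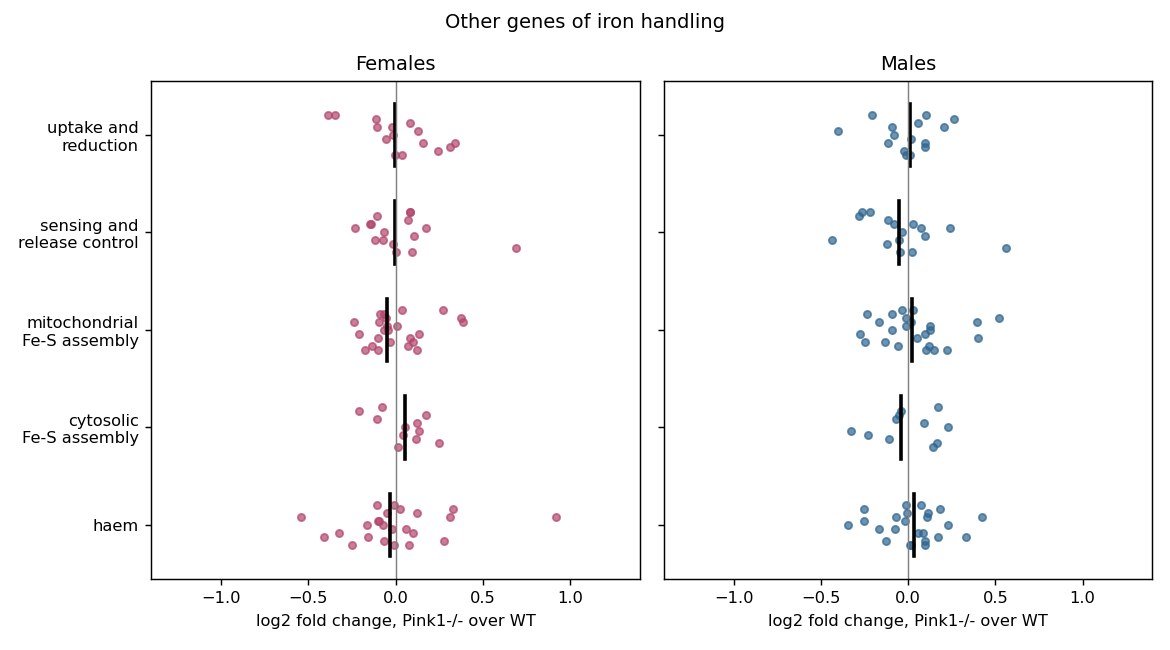
Log2 fold change of Pink1-/- over WT (x axis) for the measured genes of 5 groups of iron handling (rows), in females (left) and males (right); points are genes and black bars are group medians. Every group median lies between -0.06 and 0.06, and the leftmost point in females is Abcg2 at -0.54.

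Among 15 measured genes of iron uptake and reduction, none was called in either sex. Lrp2, the endocytic receptor megalin, was lower in both sexes without passing, at -0.35 ± 0.13 in females and -0.40 ± 0.19 in males (mean -0.37 ± 0.11, adjusted p = 0.0507). Slc22a17, a receptor for the siderophore-binding protein lipocalin 2, was at 0.24 ± 0.09 in females and 0.06 ± 0.25 in males. Steap3, the ferrireductase of endosomes, was at 0.34 ± 0.22 in females and -0.21 ± 0.37 in males.

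None of the 16 measured genes of iron sensing and release control was called. Hfe, whose product binds transferrin receptor 1 and is mutated in human haemochromatosis, was at 0.69 ± 0.33 in females (2.30 CPM) and 0.56 ± 0.43 in males (1.20 CPM), with a mean adjusted p of 0.329. Epas1, a hypoxia-inducible factor, was at 0.18 ± 0.10 in females and 0.24 ± 0.12 in males. Nfe2l2, the factor of the antioxidant response, was at 0.08 ± 0.12 in females and -0.26 ± 0.15 in males.

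Mitochondrial genes of iron import and iron-sulfur cluster assembly (24 measured) had medians of -0.05 in females and 0.02 in males, with none called. Fdxr, the reductase that feeds electrons to cluster assembly, was at 0.37 ± 0.22 in females and 0.52 ± 0.38 in males. Abcb8, a transporter of the inner membrane, was at 0.08 ± 0.11 in females and 0.40 ± 0.22 in males. The 11 measured cytosolic assembly genes had medians of 0.05 in females and -0.04 in males, also with none called. Glrx3, a cluster-binding glutaredoxin, was at -0.21 ± 0.10 in females and -0.04 ± 0.14 in males.

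The single call lay among the 24 measured genes of haem synthesis, transport and breakdown. Abcg2, an efflux pump of brain capillaries that also carries porphyrins, fell in female Pink1-/- rats to 68.6% of WT (-0.54 ± 0.14, adjusted p = 0.0252, edgeR). In males it was at 0.11 ± 0.16, and the difference between sexes was -0.65 (adjusted p = 0.324). Endothelial markers had a median of 0.07 in females, with 5 of 8 higher and none called, and of 0.05 in males. Uros, an enzyme of haem synthesis, was at 0.92 ± 0.30 in females (3.901 CPM) and 0.42 ± 0.41 in males (2.07 CPM), with a mean adjusted p of 0.0992.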

How the data were processed

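RNA of the periaqueductal gray was sequenced in 16 libraries, grouped by their labelled genotype and sex and taken as separate rats. RSEM, which divides ambiguous reads between genes, and edgeR 3.9 were used by the authors, per the labels. How reads were aligned, to which build and annotation, and how low counts were filtered is not given in the sources used here. For each sex the authors deposited 1 table of their own comparison, with log2 fold changes, mean log2 CPM, a likelihood-ratio score, p-values and Benjamini-Hochberg adjusted p-values; no fold change was refitted. The deposited p-values equal the chi-square tail (1 degree of freedom) of the score. The deposited adjusted p-values differed from Benjamini-Hochberg values over the genes analysed here by at most 0.00018 in females and 0.00021 in males. Why they differed was not tested. The depth of each library is unknown, and intervals rest on the authors' fits.

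The SE was approximated as the size of the log2 fold change over the root of the score. Means over both sexes used inverse-variance weights, and differences used the summed squared SEs, each with two-sided normal p-values adjusted over all 13731 shared genes. Calculations were tested on simulated data (Python 3.11.15, numpy 2.4.6, pandas 2.3.3, scipy 1.17.1). The simulated fold changes were drawn from a normal distribution with these same SEs. They could therefore not check the SE approximation or the normal reference. The members and gene lists were chosen with earlier results of these data known. All members were named; from each iron list, called genes were named and otherwise genes among the 4 with the smallest p-values. From the marker lists, called or defining genes were named. Myrf, Aspa, Cldn11, Slc6a4, Hba-a1, Hba-a2, Hbb, Alas2 and Epb42 were added after their values were seen. Listed symbols were looked up in either table and their rows joined by Ensembl ID. Promoter sequences and gene order came from RefSeq assembly GRCr8. Alternatives were a CPM minimum, placeholder names left out, another threshold, centring, other reference distributions, shared genes and equal weights.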

Additional observations from a re-analysis of the deposited data

How the results depend on the processing

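Of 262 values of single members under an alternative setting, 256 kept their direction and side of the threshold. Counts of members called are not among these values. Only centring and equal weights could change a direction, since the other settings left the log2 fold changes as they were. Most adjusted p-values lay far above the threshold, so few values could change side. With a threshold of 0.10, 1 member (Tfrc) was called in females. With the F reference 0 members were called in males, and with the t reference 0 in the mean over both sexes. With equal weights of both sexes the mean reversed to -0.042 for Ftl1 and -0.0032 for Cp, and after centring the difference between sexes reversed to 0.0017 for Ireb2; the cause was not tested. The adjusted p of Tf ranged from 0.0127 to 0.99988 in males and from 0.00083 to 0.117 in the mean, over 7 alternatives each.

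Counts of calls over all genes moved by more than 1.5 times under some settings. In females (114 called) they were 67 at an average of at least 5 CPM, 61 without placeholder names and 1 with the F reference. In males (112 called) they were 42, 60 and 2. In the mean (160 called) they were 97 at 5 CPM, 251 at the 0.10 threshold and 47 with the t reference. For the difference between sexes (32 called) they were 10 at 5 CPM, 12 without placeholder names and 6 with the t reference.

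Leaving out a replicate and other count models were not run, since values for single libraries were not analysed. No paired analysis was possible because the comparisons were taken as the authors fitted them and the labels pair no animals. The SE is an approximation from the score, and a low level limits what can be seen of Hmox1, Slc40a1 and Cp.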
